A study of Mus musculus with 24 samples.

Results

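The 42 genes described here encode proteins of homologous recombination, the Fanconi anaemia pathway and the DNA damage checkpoint, together with a few partners at stalled replication forks. They were chosen by name as members of these pathways, and each of the 42 symbols matched 1 of the 53465 genes of the deposited table. The RNA came from cultured RN2 cells, an acute myeloid leukaemia line of the mouse whose genotype is Mll-Af9 with Nras G12D. Every clone carried a retroviral short hairpin RNA that doxycycline switches on. The control hairpin was shRen713 (clones 2 and 7), and the hairpins against Ogdh, which encodes a subunit of the 2-oxoglutarate dehydrogenase complex of the citric acid cycle, were shOgdh346 (clones 1 and 5) and shOgdh2081 (clones 3 and 5). Each clone was sampled untreated at day 0 and after 4 days of doxycycline, with 2 libraries per clone and day, which gave 6 groups of 4 libraries. Both leukaemia mutations are shared by all groups, and each hairpin rests on 2 clones of 1 cell line, so p-values describe the spread between those clones.

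Homologous recombination repairs broken DNA by copying an intact sister chromatid. Nucleases first resect the broken ends, BRCA1 and its partners then bring in BRCA2, and the resected strand is exchanged with its match in the intact chromatid. The Fanconi pathway deals with crosslinks between the DNA strands: a core complex attaches ubiquitin to FANCD2 and FANCI, and the marked pair calls in nucleases and recombination. The kinases ATM and ATR sense damage and stalled forks and signal through CHK2 and CHK1 to halt the cell cycle. Many of these genes are transcribed most in dividing cells, in S and G2 phase.

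Since many of these genes are known to be regulated with the cell cycle, their promoters were searched for the E2F motif (TTTCCCGC, TTTCGCGC, TTTGCCGC or TTTGGCGC), the CHR element (TTTGAA or TTCGAA) and the CCAAT box (CCAAT), on both strands. RefSeq promoters of build GRCm38.p6, from 250 bases before to 50 after a start site, were matched for 32 of the 42 genes, with 36 promoters. An E2F motif was found for 8 of the 32 genes, and in 2.26% of all 32851 promoters or 2.61% of all genes with a promoter. A CCAAT box was found for 20 of the 32 genes (62.5%), against 37.4% of promoters and 41.1% of genes. A CHR element was found for 4 (12.5%), against 19.2% of promoters and 21.7% of genes. No match of 1 of these motifs shared bases with a match of another in the promoters of the 42 genes. The E2F windows are shown because the share with this motif had the largest ratio to that of all genes, with the motif in capitals, 5′ to 3′ on the strand of the gene. GCGGGAAA is TTTCCCGC on the other strand, and GCGCGAAA is TTTCGCGC.
Bard1, chr1:71103163-71103192, minus strand: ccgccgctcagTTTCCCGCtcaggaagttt
Brca2, chr5:150522442-150522471, plus strand: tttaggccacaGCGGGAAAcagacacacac
Rad51c, chr11:87404941-87404970, minus strand: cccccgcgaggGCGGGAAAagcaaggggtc
Rad51c, chr11:87404477-87404506, minus strand: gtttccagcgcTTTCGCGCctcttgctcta
Fancg, chr4:43010335-43010364, minus strand: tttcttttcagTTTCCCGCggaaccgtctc
Rmi1, chr13:58402612-58402641, plus strand: ccccgagggagTTTGGCGCgattggaggag
Chek2, chr5:110839820-110839849, plus strand: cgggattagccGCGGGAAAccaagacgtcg
Topbp1, chr9:103305187-103305216, plus strand: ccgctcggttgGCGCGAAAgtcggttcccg
Msh6, chr17:87975054-87975083, plus strand: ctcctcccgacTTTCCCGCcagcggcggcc
These matches describe letters in a window and no binding was measured. Of the 8 genes with an E2F motif, 4 fell in the Ogdh comparison below (Bard1, Brca2, Rad51c and Topbp1), and of the 24 matched genes without it 20 fell. The CCAAT box was present for 14 genes that fell among 20 that hold it, and 10 of the 12 matched genes without it fell too. In the 250 bases before the start alone, E2F motifs were found for 5 of the 32 genes and in 1.86% of all promoters.

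Upstream sequences of Brca2, the gene of this set with the largest net fall, and of Brca1, whose fall was among the smallest, are shown whole. The Brca2 window (capitals: E2F) and the Brca1 window (capitals: CCAAT box) each end at the base before the start site.
Brca2, chr5:150522371-150522620, plus strand: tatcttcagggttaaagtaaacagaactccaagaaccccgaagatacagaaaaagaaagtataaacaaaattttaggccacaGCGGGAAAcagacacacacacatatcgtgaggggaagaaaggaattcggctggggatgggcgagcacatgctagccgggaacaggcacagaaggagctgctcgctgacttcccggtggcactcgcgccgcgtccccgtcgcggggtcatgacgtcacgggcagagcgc
Brca1, chr11:101551956-101552205, minus strand: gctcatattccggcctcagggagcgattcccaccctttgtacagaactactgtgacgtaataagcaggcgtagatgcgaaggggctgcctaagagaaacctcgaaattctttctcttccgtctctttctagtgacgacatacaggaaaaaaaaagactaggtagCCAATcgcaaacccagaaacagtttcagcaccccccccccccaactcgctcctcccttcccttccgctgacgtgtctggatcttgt
The Brca1 window holds no E2F motif of this list, which says only that those letters are absent from it.

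The target of the hairpins was checked before the other genes. Ogdh (ENSMUSG00000020456, chr11:6291633-6356642, GRCm38) had day 4 levels of 206, 206, 237 and 253 CPM (counts scaled to the total of the library) in the 4 control libraries. The shOgdh346 libraries held 34.996, 34.9, 52.8 and 57.96 CPM, and those of shOgdh2081 68.5, 70.9, 32.3 and 37.8 CPM. Here and below, libraries are listed clone by clone in the order given above, replicate 1 before replicate 2. Every Ogdh library was below every control library. At day 0, before doxycycline, the control held 202, 215, 245 and 249.6 CPM, shOgdh346 126, 136, 146 and 149.8 CPM and shOgdh2081 179.99, 235, 163 and 172 CPM. The shOgdh346 libraries were thus all below the control from the start, as were those of shOgdh2081 except the library at 235 CPM. All 12 markers of myeloid identity, among them Ptprc, Spi1 and Mpo, were detected in every library, while Cd3e of T cells, Hbb-bs and Hba-a2 of red cells, and Col1a2 and Dcn of stroma were at 0 in all 24. Over all libraries the 6 T cell markers summed to at most 2.22 CPM, the 7 red cell markers to at most 2.06 CPM and the 5 B cell markers to at most 16.8 CPM, nearly all of it Cd79b in libraries of shOgdh346. The 7 stroma and endothelium markers summed to 241 to 382 CPM, of which Pecam1, also found on leukocytes, made up 239 to 381 CPM. Total counts per library ranged from 7209186 to 20705468, so that each of the 42 genes was covered by between 1704 (Rad51b) and 104003 (Topbp1) counts over all libraries.

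Recombination, Fanconi and checkpoint genes were mostly lower after 4 days of Ogdh knockdown. The net change is the log2 change from day 0 to day 4 with both Ogdh hairpins minus that of the control, and a gene is said to fall or rise where its adjusted p from edgeR's quasi-likelihood test is under 0.05. Of the 42 genes, all of which were tested, 32 fell and none rose, with a median net log2 change of -0.86. Over all 14249 genes tested the share that fell was 19.8% and the share that rose was 17.9%, and their median was -0.00. A fall of at least 2-fold was seen for 12 of the 42 genes (3.8% of all genes), and one of at least 1.5-fold for 28 (11.4% of all genes). In bulk RNA, fewer cells that transcribe a gene and less of its RNA per cell cannot be told apart.

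**Figure D1:**
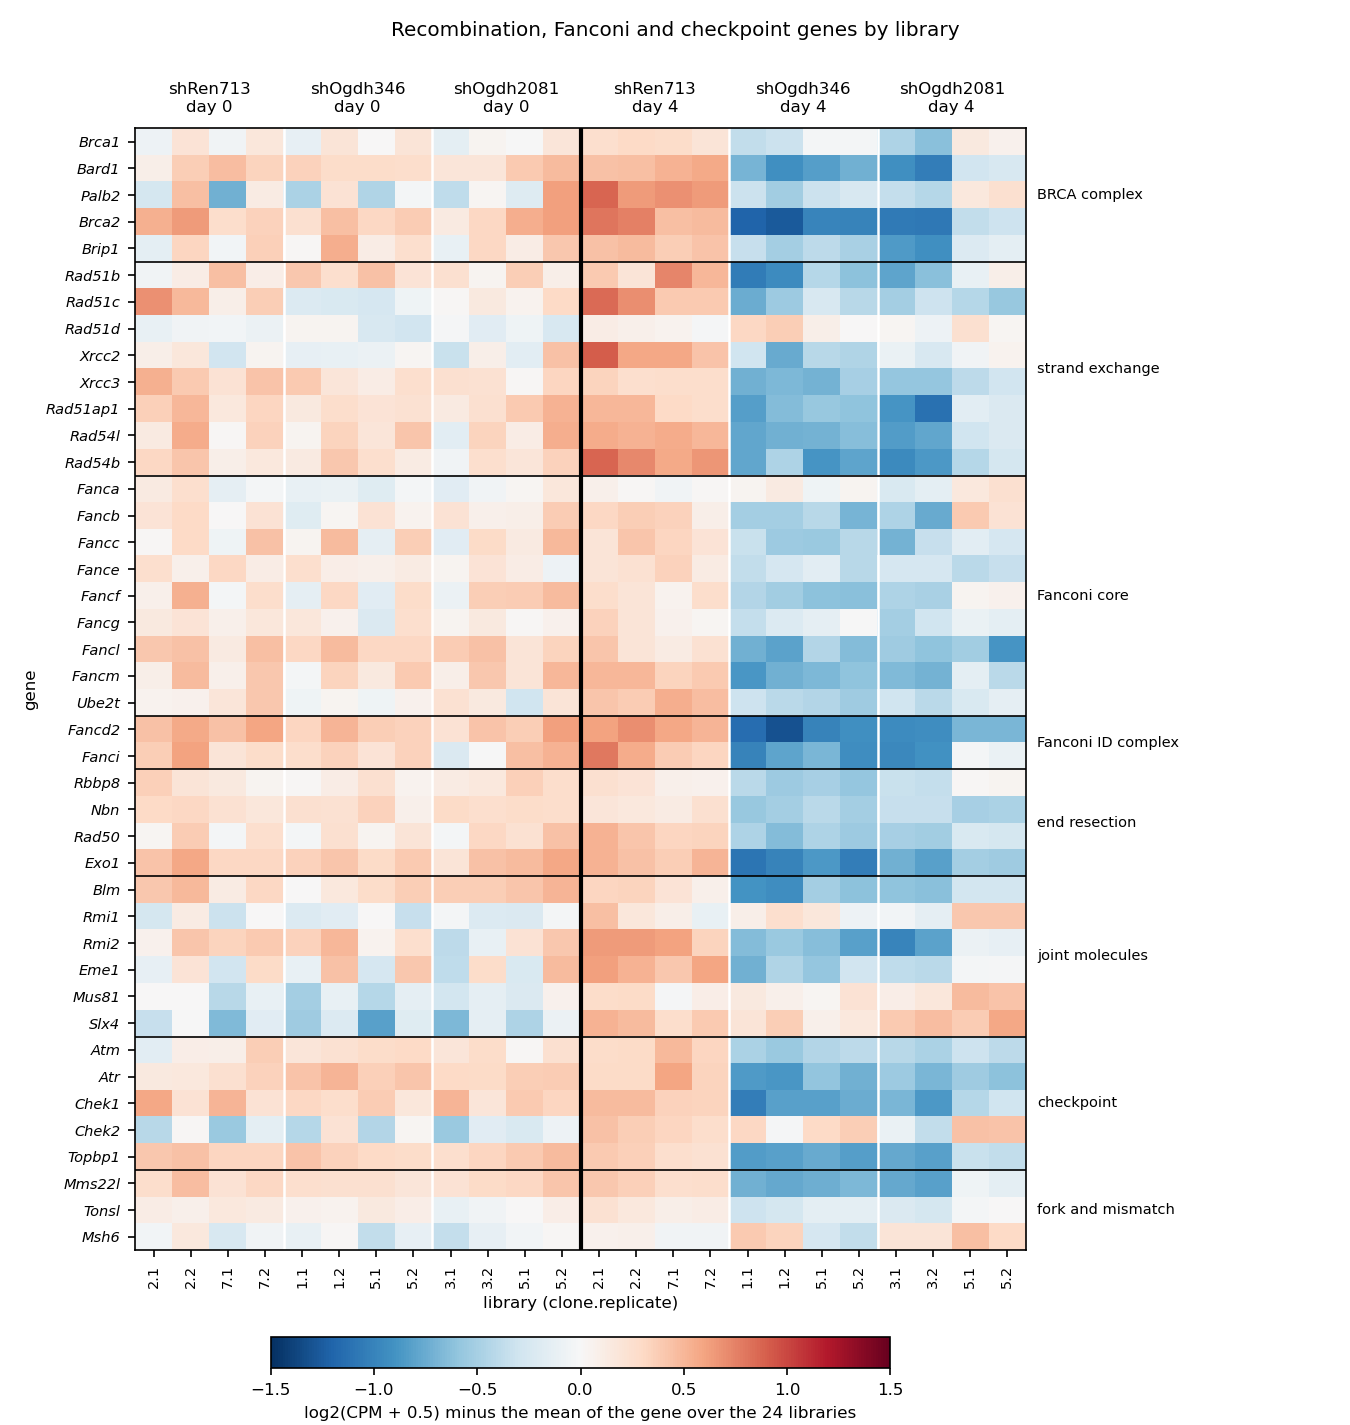
Level of each of the 42 genes (rows, in the order of their roles) in each of the 24 libraries (columns, by hairpin, day, clone and replicate), as log2(CPM + 0.5) minus the mean of the gene over the libraries, red for above and blue for below. For 33 of the 42 genes all 8 Ogdh libraries of day 4 lie below all 4 control libraries of that day.

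The same separation is seen without a model. At day 4, 33 of the 42 genes had all 8 Ogdh libraries below all 4 control libraries (20.1% of all genes did), and no gene had them all above. For 20 genes the 8 Ogdh libraries of day 4 were also all below the 8 Ogdh libraries of day 0 (17.2% of all genes). Pairing each Ogdh clone with each control clone gives 8 differences in log2 change, and all 8 were negative for 33 genes (29.3% of all genes), namely the 32 that fell and Fancg.

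In the BRCA complex all 5 genes fell, with a median net log2 change of -0.98. For this and each role below, the share of all genes that fell was 19.8%. Brca2 (ENSMUSG00000041147, chr5:150522630-150570329), which acts on resected DNA ahead of strand exchange, was at 52.5 to 74.5 CPM (median 61.6) in the 12 libraries of day 0. At day 4 it was at 83.5, 81.1, 65.4 and 66.3 CPM in the control, 20.5, 19.5, 23.7 and 23.6 CPM with shOgdh346 and 22.6, 22.4, 36.9 and 38.4 CPM with shOgdh2081. The Ogdh libraries did not overlap the control, and the highest Ogdh values came from clone 5 of shOgdh2081. The mean at day 4 was 26.01 ± 8.27 CPM (SD, n = 4 clones) with the Ogdh hairpins and 74.03 ± 11.4 CPM (SD, n = 2 clones) in the control, and the net log2 change was -1.46 ± 0.13 (SE, adjusted p = 0.000128). This was the largest of the 42, and amounts to 36.3% of the level that the change of the control would have left.

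Brca1 (ENSMUSG00000017146, chr11:101488764-101551955), the ubiquitin ligase that steers broken ends toward recombination, had a smaller net change. It was at 91.9 to 118 CPM (median 103) at day 0, and at day 4 at 121, 125, 123 and 117 CPM in the control, 78.97, 81.5, 100.1 and 100.03 CPM with shOgdh346 and 73.6, 65.9, 113 and 106 CPM with shOgdh2081. The Ogdh libraries were all lower, and the higher library of clone 5 of shOgdh2081 was close to the control. Brca1 changed by a net -0.42 ± 0.14 (SE, adjusted p = 0.0397), which passed the threshold narrowly and did not pass for either hairpin alone, at adjusted p = 0.0652 with shOgdh346 and 0.0861 with shOgdh2081. The call was lost in 11 of 37 alternatives, with adjusted p from 0.000534 to 0.256 over all of them. Bard1, the partner that BRCA1 needs to be stable, had a net change (log2) of -1.19 ± 0.14 (SE, adjusted p = 0.000397), with 16.8 to 29.4 CPM in the Ogdh libraries and 47.6 to 51.9 CPM in the control at day 4. Palb2, which links BRCA1 to BRCA2, changed by -0.95 ± 0.15 (SE, adjusted p = 0.00163), and the helicase gene Brip1 by -0.98 ± 0.16 (SE, adjusted p = 0.00152). For Palb2 the control rose by 0.81 from day 0 to day 4, while the Ogdh clones changed by -0.16 and -0.13, neither past the threshold.

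**Figure D2:**
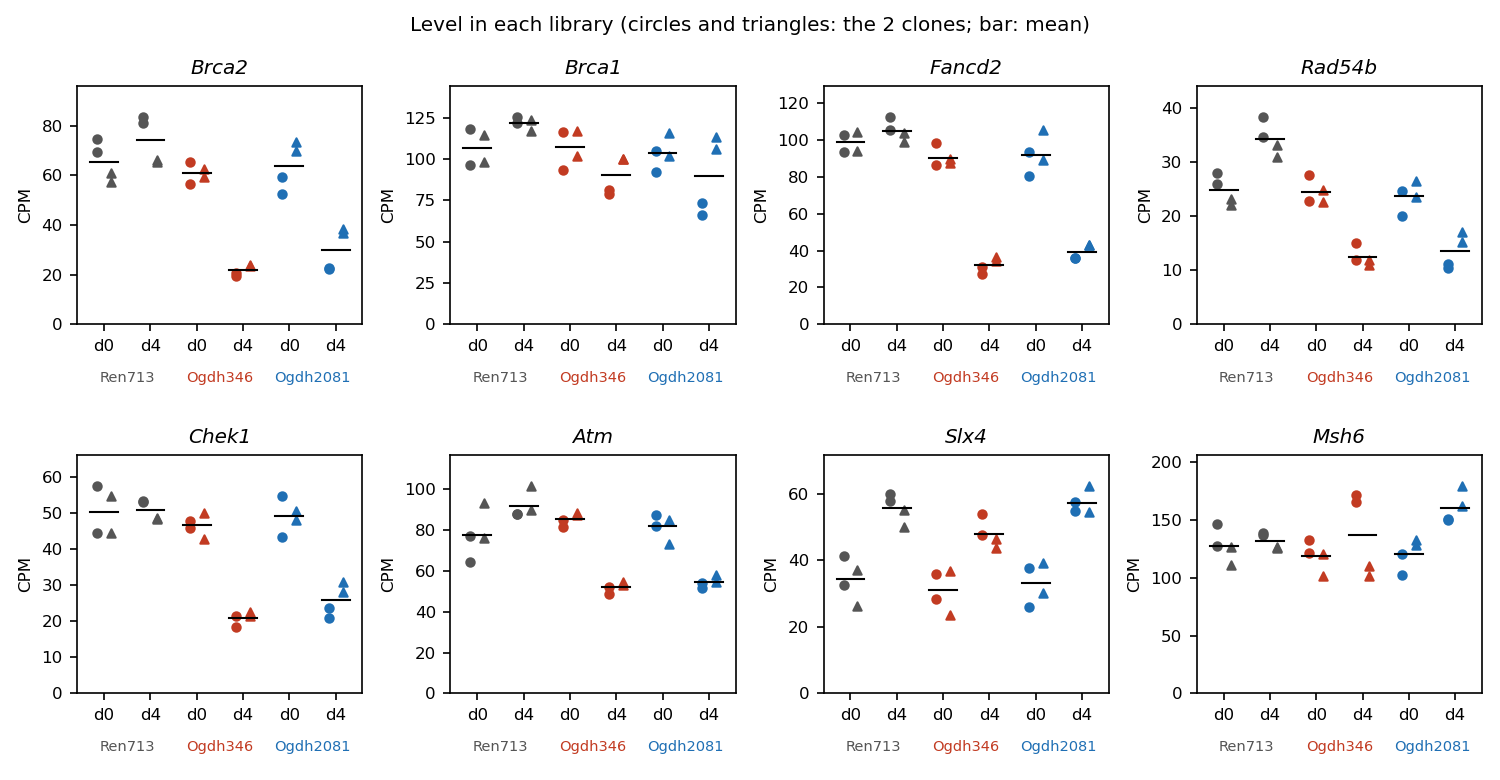
Level in CPM of 8 genes in every library by hairpin and day (d0, d4), circles and triangles for the lower- and higher-numbered clone, bars for the mean of the 4 libraries. Brca2, Fancd2, Rad54b, Chek1 and Atm separate at day 4, Brca1 separates by less, and Slx4 is higher at day 4 with every hairpin.

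Of the 8 strand exchange genes 7 fell, with a median of -0.93. Rad54b (ENSMUSG00000078773, chr4:11558922-11615805), a motor protein of strand exchange, showed the largest fall of the group. It was at 19.97 to 27.98 CPM (median 24.1) at day 0, and at day 4 at 38.4, 34.7, 30.96 and 33.2 CPM in the control, 11.9, 14.96, 10.98 and 11.8 CPM with shOgdh346 and 10.5, 11.2, 15.3 and 17.2 CPM with shOgdh2081. No Ogdh library reached the control range, and the net log2 change was -1.36 ± 0.16 (SE, adjusted p = 0.00041). Exons of Fsbp on the same strand cover 35.8% of the exonic bases of Rad54b, so the split of reads between these genes is uncertain, though Fsbp had 596 counts in all libraries against 5313 for Rad54b. The related motor gene Rad54l changed by -1.12 ± 0.13 (SE, adjusted p = 0.000311), and Rad51ap1, whose product aids strand pairing, by -0.94 ± 0.14 (SE, adjusted p = 0.00123). Exons of Lrrc41 on the other strand cover 15.4% of Rad54l, which leaves its level uncertain too.

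A further 5 genes of this group encode related proteins that act in complexes on DNA. Rad51b, Xrcc2, Xrcc3 and Rad51c had net log2 changes of -1.17, -0.92, -0.70 and -0.66, and each fell. Rad51d (ENSMUSG00000018841, chr11:82876434-82890614), which joins Rad51b, Rad51c and Xrcc2 in a complex, was at 24.9 to 31.3 CPM (median 28.8) at day 0, and at day 4 at 32.9, 32.04, 31.5 and 29.98 CPM in the control, 37.9, 39.5, 32.3 and 30.5 CPM with shOgdh346 and 31.04, 28.7, 35.98 and 31.1 CPM with shOgdh2081. The Ogdh and control libraries of Rad51d overlapped, and its net log2 change was 0.13 ± 0.12 (SE, adjusted p = 0.418). With shOgdh346 Rad51d was higher at day 4 than at day 0, by 0.32 ± 0.10 (SE, adjusted p = 0.0195). Whether Rad51d differs from these other genes was not tested. Rad51c was lower in the Ogdh clones at day 0 too, by -0.45 ± 0.15 (SE, adjusted p = 1), which did not pass the threshold. Rad51b is the least covered of the 42 genes, and its net fall passed for shOgdh346 (adjusted p = 0.00695) but not for shOgdh2081 (adjusted p = 0.063).

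Of the 9 Fanconi core genes 6 fell, with a median of -0.56. Fancm (ENSMUSG00000055884, chr12:65075603-65132058), the translocase that anchors the core complex to DNA, was at 50.4 to 72.6 CPM (median 61.7) at day 0, and at day 4 at 72.4, 72.7, 64.8 and 67.7 CPM in the control, 27.8, 31.1, 31.9 and 33.5 CPM with shOgdh346 and 32.3, 31.1, 46.3 and 38.7 CPM with shOgdh2081. All Ogdh libraries were below the control, and the net log2 change was -1.02 ± 0.12 (SE, adjusted p = 0.000325). Fancl, the ubiquitin ligase of the complex, changed by -0.90 ± 0.16 (SE, adjusted p = 0.00237), and Ube2t, the ubiquitin-conjugating enzyme it works with, by -0.67 ± 0.16 (SE, adjusted p = 0.0114). Fancc changed by -0.78 ± 0.15 (SE, adjusted p = 0.00381), and smaller falls were called for Fance at -0.44 ± 0.13 (SE, adjusted p = 0.0271) and Fancf at -0.56 ± 0.19 (SE, adjusted p = 0.0427). The call of Fancf was lost in 17 of 37 alternatives and that of Fance in 7.

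Fanca (ENSMUSG00000032815, chr8:123268300-123318576), a large core subunit, did not pass. It was at 84.8 to 115 CPM (median 93.3) at day 0, and at day 4 at 102, 97.6, 92.7 and 97.2 CPM in the control, 98.7, 106, 92.4 and 99.2 CPM with shOgdh346 and 82.3, 86.7, 107 and 114 CPM with shOgdh2081. The Ogdh values lay on both sides of the control, and the net log2 change was 0.12 ± 0.11 (SE, adjusted p = 0.423). Fancb and Fancg had negative net log2 changes of -0.53 ± 0.22 (SE, adjusted p = 0.0856) and -0.33 ± 0.14 (SE, adjusted p = 0.099) that did not pass. For Fancg all 8 Ogdh libraries of day 4, at 29.8 to 42.6 CPM, were below the control at 43.7 to 54.2 CPM. For Fancb, clone 5 of shOgdh2081 was at the level of the control. Exons of genes on the other strand cover 16.4% of Fancc (Gm16133), 14.96% of Fancf (Gas2), 13.7% of Fancl (Vrk2) and 10.5% of Fanca (Zfp276), which leaves these levels uncertain.

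Both targets of the core complex fell. Fancd2 (ENSMUSG00000034023, chr6:113531682-113597017) was at 80.4 to 106 CPM (median 93.5) at day 0, and at day 4 at 105, 112, 104 and 98.8 CPM in the control, 30.9, 27.5, 34.3 and 36.3 CPM with shOgdh346 and 35.7, 35.9, 42.9 and 42.8 CPM with shOgdh2081. The groups were far apart, with a mean of 35.7 ± 6.02 CPM (SD, n = 4 clones) with the Ogdh hairpins and 105 ± 5.12 CPM (SD, n = 2 clones) in the control. The net log2 change of Fancd2, -1.45 ± 0.11 (SE, adjusted p = 6.36e-05), had the smallest adjusted p of the 42 genes and kept its call in all 37 alternatives. Fanci (ENSMUSG00000039187, chr7:79391929-79450264), its partner, was at 28.3 to 50.3 CPM (median 40.9) at day 0, and at day 4 at 57.3, 48.8, 43.2 and 41.3 CPM in the control, 16.2, 18.8, 20.2 and 16.98 CPM with shOgdh346 and 16.6, 17.3, 32.3 and 30.7 CPM with shOgdh2081. All Ogdh libraries were below the control, those of clone 5 of shOgdh2081 by the least, and the net log2 change was -1.07 ± 0.13 (SE, adjusted p = 0.000371). Exons of Polg, on the other strand and with more counts, cover 15.95% of Fanci.

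All 4 end resection genes fell, with a median of -0.74. Exo1 (ENSMUSG00000039748, chr1:175880581-175913489), an exonuclease of long-range resection, was at 58.5 to 76.5 CPM (median 67.6) at day 0, and at day 4 at 73.3, 69.1, 65.7 and 72.4 CPM in the control, 23.5, 25.2, 27.7 and 24.5 CPM with shOgdh346 and 30.6, 28.6, 35.6 and 35.02 CPM with shOgdh2081. The Ogdh libraries were well below the control, with a net change (log2) of -1.26 ± 0.10 (SE, adjusted p = 7.56e-05). Rbbp8 (ENSMUSG00000041238, chr18:11633276-11743207), which encodes CtIP and starts resection, was at 86.5 to 109 CPM (median 94.99) at day 0, and at day 4 at 101, 98.05, 90.1 and 89.03 CPM in the control, 64.5, 58.04, 60.2 and 56.8 CPM with shOgdh346 and 67.4, 66.7, 86.2 and 87.9 CPM with shOgdh2081. Clone 5 of shOgdh2081 lay just under the control, and the net log2 change was -0.44 ± 0.10 (SE, adjusted p = 0.0078). Rad50 and Nbn, subunits of the complex that binds broken ends, changed by -0.87 ± 0.09 (SE, adjusted p = 0.000186) and -0.62 ± 0.11 (SE, adjusted p = 0.00279).

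Of the 6 genes for the processing of joint DNA molecules 3 fell, with a median of -0.41. Blm, the helicase that unwinds joint molecules, changed by -0.80 ± 0.10 (SE, adjusted p = 0.000516), and Rmi2 (ENSMUSG00000037991, chr16:10835059-10892966), which stabilises the BLM complex, by -1.01 ± 0.16 (SE, adjusted p = 0.00149). Rmi2 was at 12.03 to 22.8 CPM (median 19.7) at day 0, and at day 4 at 25.2, 25.1, 24.5 and 20.3 CPM in the control, 9.999, 10.7, 10.05 and 8.87 CPM with shOgdh346 and 7.82, 8.91, 15.002 and 14.6 CPM with shOgdh2081. All its Ogdh libraries were lower than the control. Rmi1, the other small subunit, had a net change (log2) of 0.05 ± 0.19 (SE, adjusted p = 0.865), with 13.6 to 20.05 CPM in the Ogdh libraries and 13.8 to 20.7 CPM in the control. Exons of the abundant Hnrnpk on the other strand cover 5.02% of Rmi1. A stretch of 1851 bases of Rmi1 is also 99.73% identical to Gm20775, a gene that does not overlap it and had 2 counts in all libraries. The level of Rmi1 is therefore uncertain.

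Eme1, a partner of the MUS81 nuclease, fell by a net -0.98 ± 0.12 (SE, adjusted p = 0.000479), while Mus81 itself had a net change of 0.13 ± 0.13 (SE, adjusted p = 0.466). Slx4 (ENSMUSG00000039738, chr16:3979105-4003770), the scaffold that holds such nucleases, was at 23.5 to 41.5 CPM (median 34.3) at day 0, and at day 4 at 59.8, 57.9, 49.9 and 55.01 CPM in the control, 47.6, 54.1, 43.9 and 46.6 CPM with shOgdh346 and 54.8, 57.6, 54.4 and 62.3 CPM with shOgdh2081. Control and Ogdh libraries overlapped at day 4, and all of them were above every library of day 0. Slx4 rose by 0.72 in the control, 0.64 with shOgdh346 and 0.79 with shOgdh2081, so that its net log2 change was -0.01 ± 0.11 (SE, adjusted p = 0.967). Exons of Lrrc59 on the other strand cover 8.001% of Eme1.

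**Figure D3:**
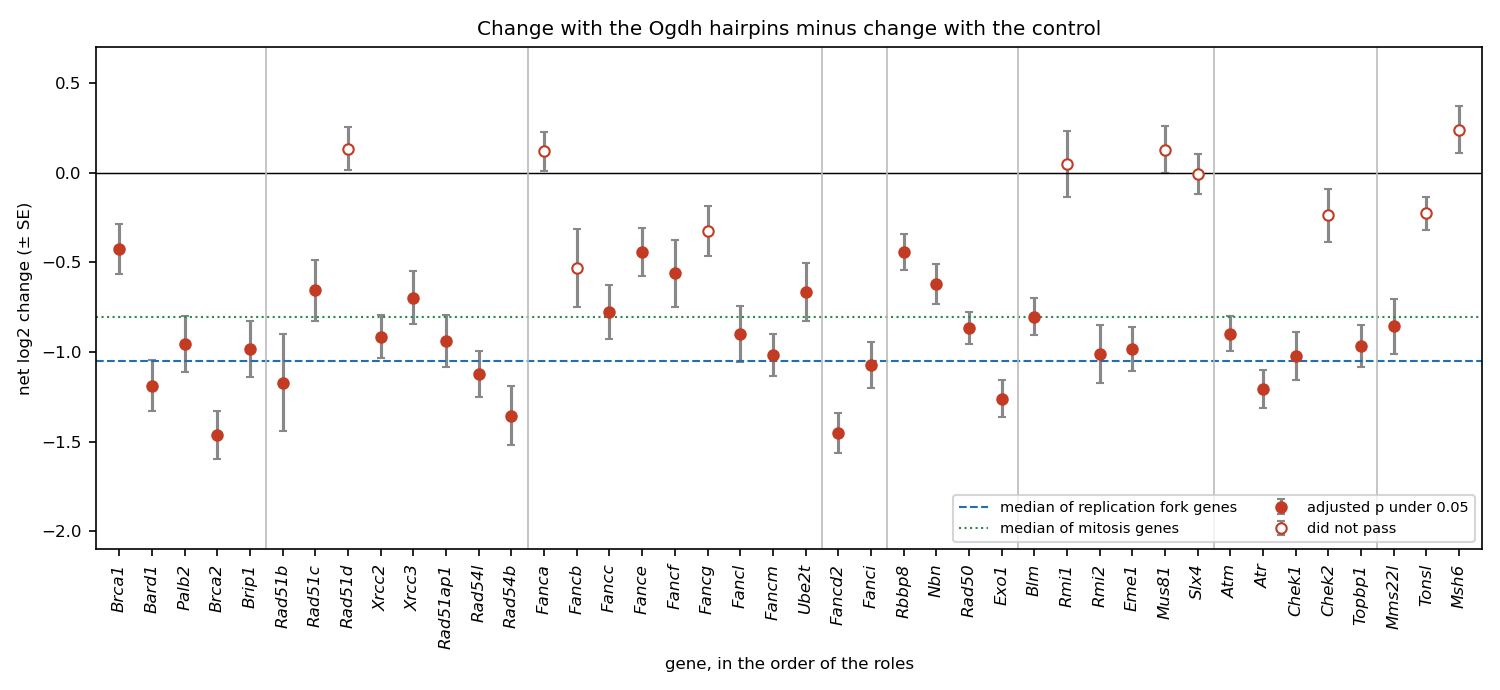
Net log2 change (± SE) of each of the 42 genes for both Ogdh hairpins together, in the order of the roles, filled where the gene was called and open where it did not pass. Dashed and dotted lines mark the medians of the replication fork genes (-1.05) and mitosis genes (-0.80). The 32 filled points all lie below 0, and the highest points are those of Msh6, Rad51d, Mus81 and Fanca, none of them called.

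Of the 5 checkpoint genes 4 fell, with a median of -0.97. Atr (ENSMUSG00000032409, chr9:95857597-95951781), the kinase that responds to stalled forks, was at 83.1 to 106 CPM (median 95.6) at day 0, and at day 4 at 91.7, 91.2, 113 and 94.2 CPM in the control, 41.3, 40.6, 49.7 and 45.4 CPM with shOgdh346 and 51.2, 46.4, 51.6 and 48.8 CPM with shOgdh2081. The Ogdh libraries were all far under the control, and the net log2 change was -1.21 ± 0.11 (SE, adjusted p = 0.00011). Chek1 (ENSMUSG00000032113, chr9:36708482-36727065), the kinase that ATR activates, was at 42.98 to 57.5 CPM (median 47.9) at day 0, and at day 4 at 53.2, 53.3, 48.7 and 48.3 CPM in the control, 18.5, 21.6, 21.6 and 22.6 CPM with shOgdh346 and 23.7, 20.8, 28.3 and 31.02 CPM with shOgdh2081. Again no library overlapped, with a net change (log2) of -1.02 ± 0.13 (SE, adjusted p = 0.000598). Topbp1, the activator of ATR and the most abundant of the 42 genes per length, changed by -0.97 ± 0.12 (SE, adjusted p = 0.000396), from a control level of 503 ± 31.2 CPM (SD, n = 2 clones) to 255 ± 44.6 CPM (SD, n = 4 clones) with the Ogdh hairpins at day 4.

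On the ATM branch, Atm fell and Chek2 did not pass. Atm (ENSMUSG00000034218, chr9:53439149-53536740) was at 64.5 to 93.2 CPM (median 83.2) at day 0, and at day 4 at 87.5, 87.7, 101 and 89.8 CPM in the control, 51.8, 48.8, 52.8 and 54.7 CPM with shOgdh346 and 53.9, 51.7, 57.8 and 54.5 CPM with shOgdh2081. The Ogdh libraries lay close together and below the control, and the net log2 change was -0.90 ± 0.10 (SE, adjusted p = 0.000258). Chek2 (ENSMUSG00000029521, chr5:110839979-110874145), the kinase that ATM activates, was at 22.2 to 38.5 CPM (median 28.5) at day 0, and at day 4 at 44.7, 42.6, 41.4 and 39.6 CPM in the control, 41.02, 32.5, 40.7 and 42.6 CPM with shOgdh346 and 30.7, 25.4, 44.9 and 44.3 CPM with shOgdh2081. Clone 3 of shOgdh2081 and 1 library of shOgdh346 clone 1 were below the control and the rest overlapped it, and the net log2 change was -0.24 ± 0.15 (SE, adjusted p = 0.241). Chek2 rose from day 0 to day 4 with every hairpin, by 0.64 in the control, 0.40 with shOgdh346 and 0.39 with shOgdh2081.

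Of the 3 genes of stalled forks and mismatch repair 1 fell, against 19.8% of all genes. Mms22l (ENSMUSG00000045751, chr4:24496451-24602950), whose product acts at stalled forks, was at 81.1 to 99.3 CPM (median 85.8) at day 0, and at day 4 at 94.7, 92.001, 85.6 and 86.4 CPM in the control, 43.5, 42.03, 42.99 and 44.7 CPM with shOgdh346 and 41.97, 40.5, 68.8 and 64.5 CPM with shOgdh2081. Its net log2 change was -0.86 ± 0.15 (SE, adjusted p = 0.00259), with clone 5 of shOgdh2081 the nearest to the control. Tonsl (ENSMUSG00000059323, chr15:76622088-76639958), the binding partner of MMS22L, was at 98.5 to 119 CPM (median 114) at day 0, and at day 4 at 125, 119, 113 and 116 CPM in the control, 85.8, 88.9998, 96.6 and 95.98 CPM with shOgdh346 and 91.6, 88.7, 104 and 107 CPM with shOgdh2081. The groups did not overlap at day 4, but the net log2 change of -0.23 ± 0.09 (SE, adjusted p = 0.0817) did not pass. Msh6, a mismatch repair gene, had a net change (log2) of 0.24 ± 0.13 (SE, adjusted p = 0.181) with clones on both sides. Its day 4 libraries held 137, 139, 126 and 127 CPM in the control, 172, 165, 110.3 and 101 CPM for shOgdh346 and 151, 149.5, 179 and 162 CPM for shOgdh2081. Without clone 5 of shOgdh346, Msh6 rose by 0.35 (adjusted p = 0.0166 in edgeR's test).

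Each hairpin was also tested alone against the control. With shOgdh346, 30 of the 42 genes fell (18.4% of all genes) and none rose (16.4%), with a median of -0.89, and with shOgdh2081, 27 fell (14.2% of all genes) and none rose (13.6%), with a median of -0.78. These comparisons share the control clones. Brca2 changed by -1.65 ± 0.16 (SE, adjusted p = 0.000177) with shOgdh346 and by -1.28 ± 0.15 (SE, adjusted p = 0.0009) with shOgdh2081, and Fancd2 by -1.58 ± 0.13 (SE, adjusted p = 0.000109) and -1.32 ± 0.13 (SE, adjusted p = 0.000359). Tonsl passed with shOgdh346 alone, at -0.34 ± 0.11 (SE, adjusted p = 0.0372), against -0.12 ± 0.11 (SE, adjusted p = 0.432) with shOgdh2081. Rad51c passed with shOgdh2081, at -0.81 ± 0.20 (SE, adjusted p = 0.016), against -0.50 ± 0.20 (SE, adjusted p = 0.0794) with shOgdh346. The difference between the hairpins passed for none of the 42 genes (0.105% of all genes in either direction), with a lowest adjusted p of 0.399 and 5 genes at an unadjusted p under 0.05 in edgeR's test. DESeq2 called none of them, and a fit of 24 libraries as samples with clone and replicate blocks called 7. Libraries of the same clone and day are not independent, so that last count can be too high. The difference was negative, with shOgdh346 the lower, for 34 of the 42 genes and for 7605 of all 14249, and the median over the 42 was -0.15. Without clone 5 of shOgdh2081 that median was 0.0033. The largest gap was that of Rad51b, at -0.58 ± 0.32 (SE).

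The change was also read clone by clone. The median change of the 42 genes from day 0 to day 4 was -0.66 and -0.67 in clones 1 and 5 of shOgdh346, -0.67 in clone 3 of shOgdh2081 and -0.42 in clone 5 of shOgdh2081. The control clones 2 and 7 had medians of 0.17 and 0.13. Clone 5 of shOgdh2081, with the smallest fall, had the lower Ogdh level of the shOgdh2081 clones at day 4, at 68.5, 70.9, 32.3 and 37.8 CPM in the order of clones 3 and 5.

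**Figure D4:**
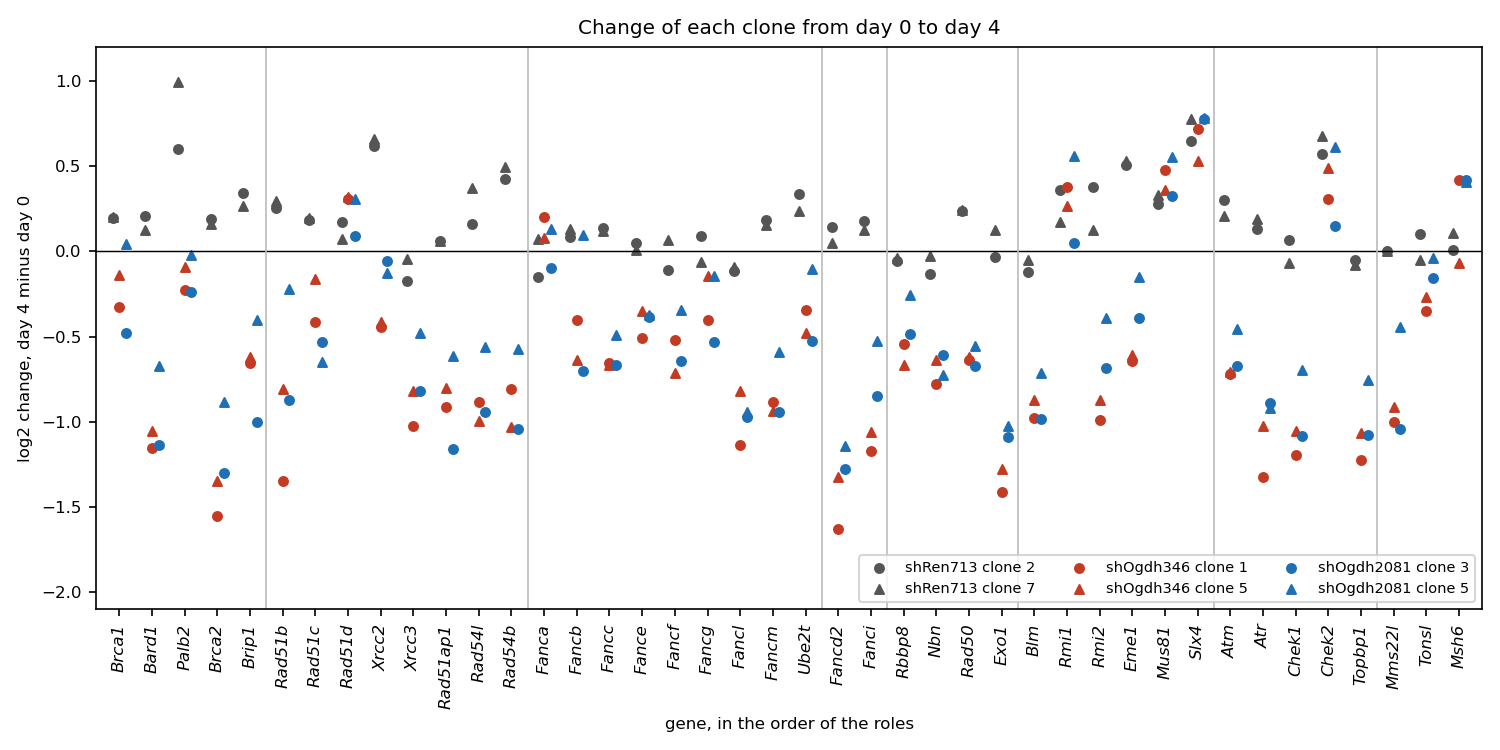
Change of log2(CPM + 0.5) from day 0 to day 4 for each of the 42 genes in each of the 6 clones, colours for hairpins and shapes for clones. The control clones lie around or above 0 and the Ogdh clones mostly below, with clone 5 of shOgdh2081 often the highest of the Ogdh clones.

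Levels within a day were compared next. At day 0 none of the 42 genes passed the threshold between Ogdh and control clones (0% of all genes). The lowest adjusted p was 0.9998, with 1 gene at an unadjusted p under 0.05 in edgeR's test. Since this fit called no gene at all, it cannot show that the levels were equal. At day 4, 28 of the 42 genes were lower with the Ogdh hairpins (14.2% of all genes) and none was higher (12.7%), with a median of -0.87. The difference in level at day 4 was -1.52 ± 0.24 (SE, adjusted p = 0.0147) for Brca2, -1.56 ± 0.13 (SE, adjusted p = 0.00746) for Fancd2 and -1.05 ± 0.11 (SE, adjusted p = 0.00886) for Atr. It did not pass for Brca1 at -0.42 ± 0.20 (SE, adjusted p = 0.173), nor for Rbbp8 at -0.47 ± 0.14 (SE, adjusted p = 0.053). This test leans on 2 control clones, and far fewer of the 42 genes passed with either of them left out. Over clones left out, the median of the 42 genes ran from -0.94 to -0.77. All-gene counts of those fits are not given here, so the loss is not read as particular to the 42 genes.

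In the control alone, 5 of the 42 genes rose from day 0 to day 4 (4.44% of all genes) and none fell (2.44% of all genes). The 5 were Palb2 at 0.81 ± 0.13 (SE, adjusted p = 0.00982), Slx4 at 0.72 ± 0.09 (SE, adjusted p = 0.00408), Xrcc2 at 0.65 ± 0.10 (SE, adjusted p = 0.00839), Chek2 at 0.64 ± 0.12 (SE, adjusted p = 0.0201) and Eme1 at 0.53 ± 0.10 (SE, adjusted p = 0.0191). Of these, Slx4 and Chek2 rose with the Ogdh hairpins too. With shOgdh346, 31 of the 42 genes were lower at day 4 than at day 0 (29.3% of all genes) and 4 were higher (30.2%), namely Rad51d, Mus81, Slx4 and Chek2. With shOgdh2081, 28 were lower (25.9%) and 4 higher (27.5%), namely Mus81 at 0.45, Msh6 at 0.42, Slx4 and Chek2.

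Day 0 libraries differed by replicate number, and this touches the control change. In replicate 2 of day 0, 23 of the 42 genes were higher than in replicate 1 (21.9% of all genes) and 1, Chek1 at -0.22 ± 0.05 (SE, adjusted p = 0.000885), was lower (22.4% of all genes), with a median of 0.12. The largest differences were those of Palb2 at 0.68 ± 0.07 (SE, adjusted p = 1.48e-08), Eme1 at 0.59 ± 0.06 (SE, adjusted p = 7.52e-09), Slx4 at 0.44 ± 0.05 (SE, adjusted p = 3.48e-07) and Fancc at 0.44 ± 0.07 (SE, adjusted p = 1.74e-05). With day 0 replicate 1 alone 11 of the 42 genes were called for the control change, and with replicate 2 alone 1 was. All-gene counts of the control change in these fits are not given here, so the shift is not read as particular to the 42 genes. The control calls also depended on both control clones, while the median control change ran from 0.13 to 0.17 over clones left out. The net count was 30 with either day 0 replicate alone. Of all genes, 2561 of 13958 fell with replicate 1 alone and 2653 of 13383 with replicate 2 alone.

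Related genes outside the 42 were tested in the same fit, in which 19.8% of all genes fell and 17.9% rose. Of 37 tested further genes of homologous recombination 19 fell and 1 rose, with a median net log2 change of -0.41. Psmc3ip, which encodes a cofactor of strand exchange, changed by -1.49 ± 0.15 (SE, adjusted p = 0.000208), Mcm8, a helicase gene of recombination, by -1.47 ± 0.16 (SE, adjusted p = 0.000263), and Rpa2, of the complex that coats unwound DNA, by -1.02 ± 0.11 (SE, adjusted p = 0.00026). The gene that rose was Nabp1, for a protein that binds unpaired DNA, by 2.53 ± 0.29 (SE, adjusted p = 0.000734), with 124 CPM in the Ogdh clones against 19.9 CPM in the control at day 4.

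Of 17 further Fanconi genes 7 fell, 1 rose and the median was -0.24, where 19.8% of all genes fell and 17.9% rose. Uhrf1, which reads methylated and crosslinked DNA, changed by -1.10 ± 0.10 (SE, adjusted p = 0.000149), Usp1, which removes ubiquitin from FANCD2, by -0.86 ± 0.09 (SE, adjusted p = 0.000191), and Cenps, a partner of FANCM, by -1.09 ± 0.14 (SE, adjusted p = 0.000469). Faap20, of the core complex, rose by 0.39 ± 0.12 (SE, adjusted p = 0.0312). Of 27 further checkpoint genes 14 fell, none rose and the median was -0.54. Timeless and Tipin, which form the fork protection complex, changed by -1.55 ± 0.12 (SE, adjusted p = 5.77e-05) and -1.07 ± 0.10 (SE, adjusted p = 0.000159), and Mdc1, an adaptor at broken DNA, by -0.91 ± 0.09 (SE, adjusted p = 0.000193).

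Cell cycle and maturation genes changed in the same comparison, in which 19.8% of all genes fell and 17.9% rose. All 34 replication fork genes and all 25 mitosis genes tested fell, with median net log2 changes of -1.05 and -0.80. The 34 fork genes summed to 6575 to 7008 CPM in the control libraries of day 4, 2721 to 3074 CPM with shOgdh346 and 2990.1 to 3760.2 CPM with shOgdh2081. Cdc6, which loads the replicative helicase, changed by -1.26 ± 0.10 (SE, adjusted p = 5.77e-05), and Tk1, which phosphorylates thymidine, by -1.10 ± 0.09 (SE, adjusted p = 7.56e-05). Among mitotic genes, Cenpf changed by -1.39 ± 0.09 (SE, adjusted p = 2.75e-05), Ccnb2 by -1.27 ± 0.12 (SE, adjusted p = 0.00014) and Ccnb1 by -1.03 ± 0.09 (SE, adjusted p = 0.000111). Of 18 markers of neutrophil maturation 14 rose and none fell, with a median of 3.86. These markers summed to 707 to 2885 CPM in the control at day 4, 29391 to 55687 CPM with shOgdh346 and 13331 to 15148 CPM with shOgdh2081. At day 0 they summed to 606 to 4210.1 CPM in all groups. The 5 megakaryocyte markers summed to 2.01 to 7.76 CPM in the control at day 4, 19.5 to 27.3 CPM with shOgdh346 and 44.3 to 75.3 CPM with shOgdh2081. Of the 3 of them tested, Itga2b and Gp1bb rose, while Pf4 and Ppbp stayed under 1 CPM in every library. Of 2 stroma and endothelium markers tested Col1a1 rose, to 1.73 to 1.92 CPM with shOgdh346 and 0.610 to 1.06 CPM with shOgdh2081 at day 4, and Pecam1 did not pass. These marker genes are named after their values were seen. The part of these shifts in the falls of the 42 genes was not tested.

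Levels per length overlapped between the genes that fell and the others. In the control at day 0 the 32 genes that fell had a median of 7.42 RPKM, which is CPM divided by the transcript length in kilobases (from 1.91 for Fancc to 46.8 for Topbp1), and the other 10 had a median of 8.42 RPKM (from 2.10 for Rmi1 to 29.9 for Msh6). The deposited length of Rbbp8, 3867 bases, is shorter than its 12521 exonic bases in the GENCODE annotation of this build, so its RPKM of 25.3 is uncertain. By the deposited lengths, the highest levels next to Topbp1 and Msh6 were those of Rbbp8, Tonsl at 19.97 RPKM and Rad50 at 19.3 RPKM. The place of Rbbp8 in this order is uncertain. Lengths also differ from that annotation for Tonsl (5815 deposited, 4956 exonic bases) and by less for Msh6 and Fance. The lowest were those of Fancc, Rad51b at 2.03 RPKM and Rmi1.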

How the data were processed

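Poly(A) RNA was turned into single-end TruSeq libraries, per the labels' protocols. The authors deposited whole-number counts per Ensembl gene together with a transcript length in bases per gene. The submitters' processing notes list STAR 2.6.1a, featureCounts 1.6.3, Trimmomatic 0.36, FastQC 0.11.5 and the mouse build mm10 (GRCm38). The protocol text instead names a human build, another counter and an RPKM matrix, which whole numbers under mouse identifiers do not match. Neither the annotation release nor the strand setting is given in the sources used here, so reads of overlapping genes on opposite strands cannot be told apart.

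The 42 genes were matched by symbol, and all 42 matched. The members, the other gene lists, the motifs and the rule for named genes were chosen with earlier results of these data known. In each role the genes with the largest and the smallest absolute net change are given library by library, as are Brca1, Brca2, Fancd2, Chek1, Atm and Atr. Of the other lists, up to 3 genes with the smallest p and any that rose are named. Some genes of those lists, and the list of mismatch repair genes, are not reported here.

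Both libraries of a clone at a given day were added up, which gave 12 clone sums, since the clone carries the hairpin. Deviations of clones from their group mean correlated between day 0 and day 4 across 14249 genes with r = 0.89 for the control, 0.60 for shOgdh346 and 0.68 for shOgdh2081, and the pairing comes from the clone numbers in the labels. Tests used edgeR 4.0.16 in R 4.3.3 (TMM, filterByExpr, robust quasi-likelihood test) with a clone block and a day 4 term per hairpin, on 14249 genes. This left 3 residual degrees of freedom and a median of 6.11 prior ones. Levels within a day were tested on 6 clone sums (13125 genes at day 0, 13747 at day 4), with 3 residual degrees of freedom. Day 0 libraries of replicates 2 and 1 were compared with a clone block on 11331 genes. Adjusted p is Benjamini-Hochberg over all genes of a fit, with a threshold of 0.05, and the SE is the one the test statistic implies. CPM used TMM-scaled totals. Changes of single clones used log2(CPM + 0.5). RPKM was computed from CPM and the deposited transcript lengths. The fit with the clone block was tested on simulated counts, for the net change of both Ogdh hairpins. These counts had the same dispersion for all genes and no spread between clones in their change.

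Libraries held 7209186 to 20705468 counts in total, over 16876 to 20657 detected genes. The 2 libraries of a clone and day differed by a chi-square of 6.78 to 10.3 per gene at day 0 and 1.60 to 2.94 at day 4, so none was counted as a repeat. Alternatives were RLE scaling, no filter, DESeq2 1.42.0, other blocks, day 0 libraries of replicate 1 or 2 alone, and leaving out each clone or library.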

Additional observations from a re-analysis of the deposited data

Results flagged for a closer look

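For the 18 genes given library by library, each of the 6 groups of 4 libraries was searched for a library far from the rest. Of these 108 groups, 2 held a library whose gap to its nearest neighbour, in units of the group's range, passed Dixon's critical value for 4 samples. For 4 independent values chance alone flags about 1 group in 20. Libraries here come in pairs from 2 clones, so that rate need not hold. Rmi2 stood at 20.3 CPM in replicate 2 of control clone 7 at day 4, below the nearest control library at 24.5 CPM, a gap of 0.851 of the range. Atr stood at 113 CPM in replicate 1 of the same clone and day, above the nearest control library at 94.2 CPM, a gap of 0.863 of the range. Leaving out either library kept the net fall of both genes past the threshold in edgeR's test.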

How the results depend on the processing

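Of the 42 genes, 32 fell for the mean net change (2818 of all 14249 genes). With a library left out 30 to 33 fell (2628 to 2956 of 14036 to 14320 genes). It was 31 with RLE scaling (2619 of 14249) and 33 with no filter (2976 of 27754). DESeq2 gave 28 (2119 of 14249). With no clone term, which ignores the pairing of days within a clone, 23 fell (1603 of 14249). With 24 libraries and clone and replicate blocks 35 fell (3901 of 12652). When a clone was left out, the median net log2 change of the 42 genes ran from -0.90 to -0.78. None rose in the main test, but the fit of 24 libraries called 37 genes in all. Fanca (0.15, adjusted p = 0.0407) and Msh6 (0.27, adjusted p = 0.00524) rose there in edgeR's test. That fit takes the 2 libraries of a clone and day as separate samples. Since they share a clone, its p-values can understate the spread between clones. Without shOgdh346 clone 5 the net log2 change of Msh6 was 0.35. The calls of Brca1, Fance and Fancf, whose falls were small, were lost in 11, 7 and 17 of 37 alternatives. Signs changed in 16 alternatives for Slx4, 7 for Rmi1 and 1 for Fanca, none of them called on both sides.

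The count of genes called for the net change of shOgdh2081 (27) was 13 with no replicate block and ran from 16, without control clone 7, to 31 over clones left out. For the difference between the Ogdh hairpins (0), the fit of 24 libraries with a replicate block called 7. For the control change (5), 1 was called with no clone term and 21 with 24 libraries and clone and replicate blocks. It was 11 with replicate 1 of day 0 alone and 1 with replicate 2 of day 0 alone. Leaving out a library gave 2 to 8, and fewer passed without either control clone. The level at day 4 (28) lost most calls without either control clone and some without shOgdh346 clone 1. Over clones left out, its median ran from -0.94 to -0.77. In those fits a lone clone is assumed to vary like the others, and fewer samples were fitted. The day 0 difference between replicates (24) gave 12 with no clone term. Apart from leaving out clones or libraries, the cause of these shifts was not tested.

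Replicate numbers of day 0 and day 4 share only a number, since their deviations correlated with r of -0.018 to 0.012 within clones. With 2 clones per hairpin the precision is set by the spread between clones. Genes at low counts, such as Rad51b with 1704 counts in all libraries, carry the widest errors.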

Other observations

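Genes of end joining and excision repair were measured in the same comparison. Of 18 tested end joining genes, which rejoin broken ends without a template, 8 fell and 3 rose, with a median net log2 change of -0.34. Lig1, a DNA ligase, changed by -1.14 ± 0.09 (SE, adjusted p = 7.57e-05), Prkdc, the catalytic subunit of the DNA-dependent protein kinase, by -1.09 ± 0.09 (SE, adjusted p = 9.37e-05), and Polq, the polymerase of microhomology-mediated joining, by -1.07 ± 0.12 (SE, adjusted p = 0.000259). Among those that rose, Dclre1c, the Artemis nuclease, changed by 0.65 ± 0.11 (SE, adjusted p = 0.00245) and Xrcc5, the larger Ku subunit, by 1.497 ± 0.48 (SE, adjusted p = 0.0352). Xrcc5 was close to the lower limit of what was tested, with 2.04 CPM in the Ogdh clones against 0.624 CPM in the control at day 4.

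Of 34 tested genes of nucleotide and base excision repair, 15 fell and none rose, with a median of -0.30. The genes with the smallest p were Ung, the uracil-DNA glycosylase, at -1.53 ± 0.16 (SE, adjusted p = 0.000204), Tdp1, which removes trapped topoisomerase from DNA ends, at -1.32 ± 0.14 (SE, adjusted p = 0.000223), and Mutyh, a glycosylase for adenine opposite oxidised guanine, at -1.33 ± 0.18 (SE, adjusted p = 0.000693). Among all 14249 genes 19.8% fell and 17.9% rose in this comparison.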
